A study of Mus musculus with 18 samples.

Results

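The genes described here are Myc, its dimerisation partner Max, the Myc antagonist Mxd4 and 41 genes for ribosome biogenesis, 44 in all, taken from a list of gene symbols by function, which was drawn up with earlier results of these data known. All 44 were found among the 15402 genes of the table, 43 under their symbol and Utp4 under an older symbol, and all 44 had a mean level high enough to be tested, as did 13190 genes of the table. They were measured by RNA-seq in 18 libraries, 3 from each of 6 T-cell populations sorted from lymph nodes draining the abdominal skin, 5 days after that skin had been treated with 3% oxazolone, a contact sensitiser. All mice were female C57/BL6 animals that carried the Foxp3Timer transgene, a Timer protein driven from Foxp3 regulatory sequence, together with the Foxp3-IRES-GFP allele. All populations, the Timer- ones included, therefore came from treated transgenic mice, and each replicate was a pool of 3 mice. Timer protein is blue when new and turns red as it matures, so its 2 colours report recent and past Foxp3 transcription. Tnaive cells were CD44lo and Timer-, and Teff cells were CD44hi and Timer-. Among Timer+ cells, Pers1 (intermediate blue, low red) and Pers2 (high blue, high red) had persistent Foxp3 transcription. The study reads PAt cells (low blue, high red) as less frequent Foxp3 transcribers. It reads Arrested cells (intermediate red, no blue) as cells in which recent transcription had stopped.

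Myc is a transcription factor that binds E-box DNA as a dimer with Max. Mxd4 competes for Max and represses many of the same genes. Among the best known Myc targets are the genes for ribosome production in the nucleolus. RNA polymerase I transcribes the precursor rRNA there, snoRNP particles guide its modification, and processing factors cut and fold it into the small and the large ribosomal subunit. In T cells, antigen and growth factor signals raise Myc, nucleoli enlarge, and ribosome production goes with growth before division.

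Levels are given as deposited, on the log2 scale of normalised counts, so that a difference of 1 is a doubling. The read depth behind each library is unknown, and precision rests on the spread between 3 libraries per population. A gene passed the test at an adjusted p under 0.05 (limma, Benjamini-Hochberg over the 13190 tested genes). It was called at the thresholds of the study if its log2 difference was also above 1 in size. In these bulk samples, fewer cells of a type and less RNA per cell cannot be told apart. Foxp3 ranged from 14.36 to 14.85 in the 12 Timer+ libraries and from 10.38 to 11.38 in the 6 Timer- libraries. Mki67, a marker of cycling cells, was at 8.48 on average in Tnaive, 12.62 in Teff, 14.54 in Pers2 and 14.51 in Pers1, while PAt had 11.65 and Arrested 11.63.

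Markers of other cell types were not even across the populations. The summed level of 4 plasmacytoid dendritic cell markers was 12.15 to 12.59 in Teff libraries and 10.58 to 11.24 in all others, and Siglech alone had a mean of 10.62 in Teff. That of 4 B cell markers was 11.09 to 11.76 in Teff, 10.74 to 11.28 in PAt and Arrested, 9.56 to 10.06 in Pers1 and Pers2 and 9.15 to 9.51 in Tnaive. The 4 monocyte markers summed to 9.85 to 10.23 in Teff and to 6.16 to 8.32 elsewhere, with Cd14 near 0 in every library. The 2 CD8 markers summed to at least 11.51 in Teff and to at most 10.70 elsewhere, and the 3 NK cell markers to 8.94 to 9.41 in Timer- and 7.13 to 7.63 in Timer+ libraries. The labelled cell types held: 3 T cell markers summed to 15.82 to 16.39 in all libraries, 4 Treg markers to 15.98 to 16.98 in Timer+ and 11.79 to 14.22 in Timer- libraries, and 3 naive T-cell markers to 15.94 to 15.99 in Tnaive and 14.89 to 15.61 elsewhere. Their part in the results below was not tested.

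Promoter sequences show where the E-box stands. RefSeq promoter windows, each from 250 bases before to 50 bases after a start site (GRCm38.p6), were found for 38 of the 44 genes, 42 windows in all, and were searched for CACGTG, which reads the same on both strands. There were none for Myc, Npm1, Fbl, Rrp12, Bop1 and Rrs1. The motif stood in 9 of the 42 windows (21.4%), against 9.68% of the windows of tested genes and 7.15% of all windows. The related CACGCG, on either strand, stood in 33.3% of the windows, against 16.5% for tested genes and 9.27% for all. The 9 stretches with the motif are shown, each 30 bases long, in order of position and with CACGTG in capitals, because this is the sequence that Myc-Max dimers are known to bind. Positions count from the start site, which is base 0.
Mxd4: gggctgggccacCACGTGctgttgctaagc
Nop2: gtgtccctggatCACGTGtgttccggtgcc
Max: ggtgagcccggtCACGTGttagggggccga
Pes1: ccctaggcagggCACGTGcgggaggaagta
Utp4: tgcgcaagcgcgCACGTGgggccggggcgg
Wdr43: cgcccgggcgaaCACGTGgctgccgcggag
Tsr1: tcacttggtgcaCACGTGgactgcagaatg
Utp20: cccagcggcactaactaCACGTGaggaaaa
Mybbp1a: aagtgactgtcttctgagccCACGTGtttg

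The Mxd4 stretch lies at chr5:34187912-34187941, minus strand, with the motif from base -219. The Nop2 stretch lies at chr6:125131811-125131840, plus strand, with the motif from base -60. The Max stretch lies at chr12:76962234-76962263, minus strand, with the motif from base -3. The Pes1 stretch lies at chr11:3963965-3963994, plus strand, with the motif from base 2. The Utp4 stretch lies at chr8:106893643-106893672, plus strand, with the motif from base 15. The Wdr43 stretch lies at chr17:71616220-71616249, plus strand, with the motif from base 17. The Tsr1 stretch lies at chr11:74898092-74898121, plus strand, with the motif from base 24. The Utp20 stretch lies at chr10:88826765-88826794, minus strand, with the motif from base 37. The Mybbp1a stretch lies at chr11:72441347-72441376, plus strand, with the motif from base 40. The motif lay before the start site in Mxd4 and Nop2, spanned it in Max, and lay after it in the other 6. Of the 20 genes with a window that fell in persistent cells relative to PAt and Arrested (below), 7 held the motif. Of the 8 that were higher, 0 did, and 2 of the 10 that did not pass held it. The 7 include Max and Mxd4. Of all tested genes with a window, 11.5% held the motif, and this share was not split by direction. These counts are small, and a link between motif and direction was not tested. A match is only a description of these windows. As examples, the 250 bases before the start site of Nop2, an rRNA methyltransferase of the large subunit pathway, hold 1 motif (chr6:125131633-125131882, plus strand), and those of Nhp2, the gene with the highest persistent level relative to PAt and Arrested, hold 0 (chr11:51619523-51619772, plus strand).
Nop2: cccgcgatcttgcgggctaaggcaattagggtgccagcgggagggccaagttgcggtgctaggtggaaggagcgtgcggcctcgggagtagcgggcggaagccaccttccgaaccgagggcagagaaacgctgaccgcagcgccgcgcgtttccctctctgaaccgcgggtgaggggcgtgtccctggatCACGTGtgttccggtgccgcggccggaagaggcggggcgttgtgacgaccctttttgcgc
Nhp2: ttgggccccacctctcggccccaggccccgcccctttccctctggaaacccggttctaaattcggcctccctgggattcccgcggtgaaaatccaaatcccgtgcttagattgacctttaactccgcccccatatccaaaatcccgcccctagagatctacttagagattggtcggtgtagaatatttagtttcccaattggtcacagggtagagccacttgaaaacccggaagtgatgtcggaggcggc

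The highest level of most of these genes was in Tnaive cells. The mean of the 41 ribosome biogenesis genes was 11.53 ± 0.012 in Tnaive (SD, n = 3 libraries, as for the next values), 11.25 ± 0.015 in PAt, 11.22 ± 0.039 in Pers1, 11.20 ± 0.026 in Arrested, 11.11 ± 0.044 in Pers2 and 11.06 ± 0.0082 in Teff. Libraries of neighbouring populations in this order overlapped between PAt and Pers1 and between Pers1 and Arrested, and the highest Teff library equalled the lowest Pers2 library at 11.07. The Tnaive libraries, from 11.52 to 11.54, stood above all 15 others. Cells with the lowest Mki67 thus had the highest mean, but the order of the other populations did not follow Mki67 throughout: Pers1 had more Mki67 than Teff and a higher mean. The Pearson r of the mean with Mki67 was -0.795 over the 18 libraries and -0.524 over the 12 Timer+ libraries. With Myc it was 0.658 and 0.49. These values are descriptions, since libraries cluster by population. The heat map of all 44 genes shows the 11 genes whose highest mean was outside Tnaive: Myc and Mxd4 in PAt, Max and Wdr12 in Teff, Rrp1b in Pers2, and Ncl, Gar1, Nhp2, Noc4l, Bop1 and Nop16 in Pers1.

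**Figure D1:**
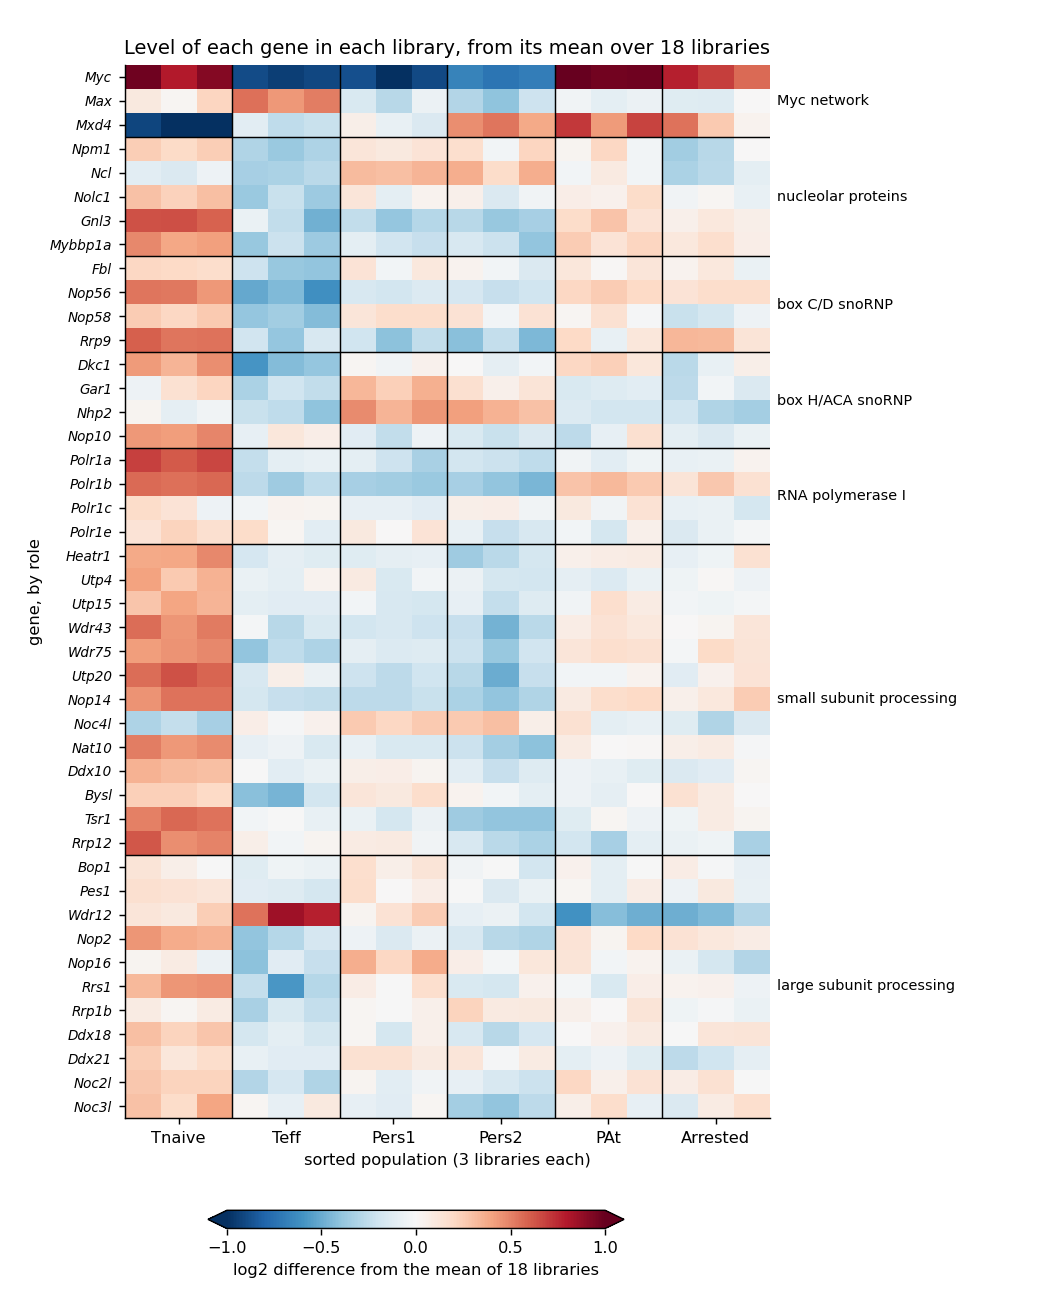
Level of each of the 44 genes (rows, grouped by role) in each of the 18 libraries (columns, 3 per population), as the log2 difference from the gene's own mean over the 18 libraries. The colour scale ends at 1 in either direction. Most rows are red in the 3 Tnaive columns, Myc is red in Tnaive, PAt and Arrested, and Wdr12 is red in Teff.

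**Figure D2:**
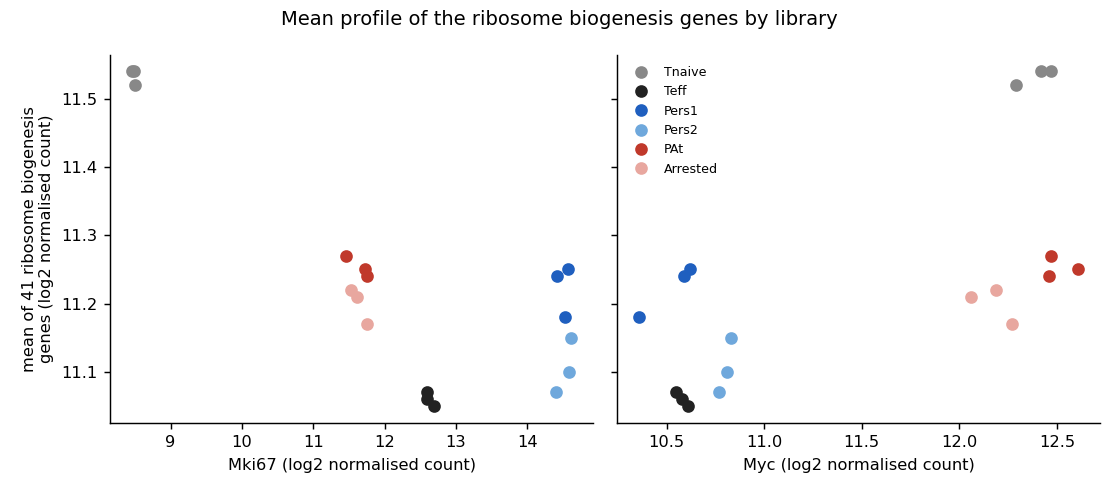
Mean log2 level of the 41 ribosome biogenesis genes (vertical axis) in each library against Mki67 (left) and Myc (right), both in log2 normalised counts, with 1 point per library coloured by population. The 3 Tnaive libraries lie at 11.52 to 11.54, above all others, at the lowest Mki67. Pers1 and Pers2 overlap in Mki67, as do PAt and Arrested, and each of these pairs lies close together in the left panel.

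Myc itself split the populations into 2 levels. Myc (chr15:61985391-61990374, plus strand, GRCm38) was at 12.47, 12.29 and 12.41 in the Tnaive libraries and at 10.61, 10.55 and 10.58 in the Teff libraries. It was at 10.62, 10.36 and 10.59 in Pers1 and at 10.83, 10.77 and 10.81 in Pers2. It was at 12.61, 12.46 and 12.47 in PAt and at 12.27, 12.19 and 12.06 in Arrested. All 9 libraries of Teff, Pers1 and Pers2 were below all 9 of Tnaive, PAt and Arrested, with no value between 10.83 and 12.06. Myc differed between Teff and Tnaive by -1.81 ± 0.069 on the log2 scale (SE, adjusted p = 3.09e-15). Relative to PAt and Arrested, the persistent populations had a difference of -1.68 ± 0.049 (adjusted p = 4.4e-17). Both are calls at the thresholds of the study, reached by 2.28% and 2.77% of tested genes in that direction.

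In order of mean, Myc was highest in PAt (12.52), then Tnaive (12.39), Arrested (12.17), Pers2 (10.80), Teff (10.58) and Pers1 (10.52). PAt and Tnaive did not pass a test of their difference (0.12 ± 0.069, adjusted p = 0.15), nor did Teff and Pers1 (0.06 ± 0.069, adjusted p = 0.516). Tnaive was above Arrested by 0.22 ± 0.069 (adjusted p = 0.0141) and Pers2 above Teff by the same 0.22 ± 0.069 (adjusted p = 0.0103). The log2 difference between the persistent populations together and Teff was 0.08 ± 0.060 (adjusted p = 0.25), and that between PAt with Arrested and Tnaive was -0.05 ± 0.060 (adjusted p = 0.54). The level of Myc was thus set apart by the step from Tnaive to Teff and from PAt and Arrested to the persistent cells, and these 2 shifts did not differ detectably (difference 0.13 ± 0.084, adjusted p = 0.22).

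**Figure D3:**
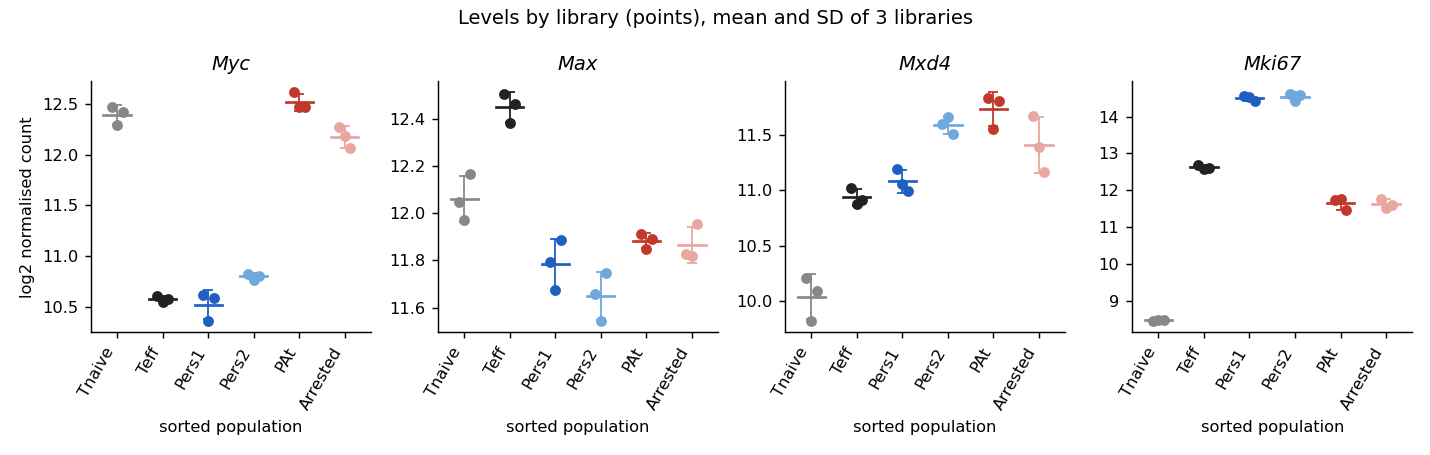
Log2 normalised counts of Myc, Max, Mxd4 and, for reference, Mki67 by population, with 1 point per library, the mean as a horizontal bar and the SD of 3 libraries as the error bar. The vertical axes differ between panels and do not start at 0. Myc is between 10.36 and 10.83 in Teff, Pers1 and Pers2 and between 12.06 and 12.61 in the others.

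Max, the partner of Myc (chr12:76937269-76962201, minus strand), was highest in Teff. It was at 12.05, 11.97 and 12.16 in Tnaive and at 12.50, 12.38 and 12.46 in Teff, which do not overlap. Its lowest, median and highest values were 11.54, 11.71 and 11.89 over the 6 persistent libraries and 11.82, 11.87 and 11.95 over the 6 PAt and Arrested libraries, which overlap. Max rose from Tnaive to Teff by 0.39 ± 0.065 (adjusted p = 2.68e-05) and differed between persistent cells and PAt with Arrested by -0.16 ± 0.046 (adjusted p = 0.0041). The difference of persistent cells from Teff was -0.73 ± 0.056 (adjusted p = 3.6e-10).

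Mxd4, the antagonist (chr5:34173883-34187720, minus strand), was lowest in Tnaive, at 10.21, 9.82 and 10.09. It was at 11.02, 10.88 and 10.91 in Teff, at 11.19, 11.06 and 10.99 in Pers1 and at 11.60, 11.67 and 11.51 in Pers2. It was at 11.84, 11.56 and 11.80 in PAt and at 11.67, 11.39 and 11.16 in Arrested. Every other library was thus above the 3 Tnaive libraries. Mxd4 rose from Tnaive to Teff by 0.90 ± 0.11 (adjusted p = 3.9e-07) and stood 1.53 ± 0.094 above Tnaive in PAt and Arrested (adjusted p = 9.7e-12), the call at the thresholds among the 44 genes in that comparison. The difference of persistent cells from PAt and Arrested was -0.24 ± 0.077 (adjusted p = 0.0095), with overlapping libraries. Tnaive, PAt and Arrested thus shared a high Myc level but differed in Mxd4.

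Between Teff and Tnaive, 38 of the 44 genes fell and 4 rose, and 2 did not pass. Over all tested genes, 27.7% fell and 31.3% rose, so the share that fell among the 44 was well above the background. The median log2 difference of the 44 was -0.51, against 0.0047 over all tested genes. At the thresholds of the study, 2 of the 44 were lower and 0 higher, with 2.28% and 8.88% of all tested genes. At an unadjusted p under 0.05, with the same fold, 0 were higher. The called genes were Myc and Nop56, a core protein of box C/D snoRNPs (chr2:130274430-130279313, plus strand). Nop56 was at 13.31, 13.30 and 13.21 in Tnaive and at 12.26, 12.33 and 12.16 in Teff, a difference of -1.02 ± 0.046 (adjusted p = 4.8e-14). Without the third Teff library it was -0.98, below the fold threshold. The 4 that rose were Max, Mxd4, Noc4l and Wdr12. The plasmacytoid dendritic, B, monocyte and CD8 marker levels given above were also higher in Teff than in Tnaive, and 4 of 4, 4 of 4, 3 of 3 tested and 2 of 2 of those markers passed the test. Of the NK cell markers, Klrb1c (3.20) and Ncr1 (1.39) were higher in Teff and Eomes was lower (-1.25).

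Between the persistent populations and PAt with Arrested, the 44 genes divided: 21 fell, 9 rose and 14 did not pass. Over all tested genes 35.1% fell and 35.9% rose, and the median log2 difference was -0.068 for the 44 and -0.014 over all. At the thresholds, Myc was the 1 gene that was lower and 0 were higher, with 2.77% and 4.74% of all tested genes. At an unadjusted p under 0.05, with the same fold, 0 were higher. The 9 that rose were Nhp2, Wdr12, Ncl, Gar1, Noc4l, Nop16, Ddx21, Npm1 and Nop58. Of the markers of other cells, all 4 B cell (median log2 difference -1.12), 2 of 2 CD8 (Cd8a -1.16, Cd8b1 -0.46) and 3 of 4 plasmacytoid dendritic markers (Spib -1.14, Tcf4 -0.73, Bst2 -0.15) were lower in the persistent libraries. Of the NK cell markers, Eomes was lower (-0.91) and Klrb1c higher (0.61), and the 3 tested monocyte markers did not pass. A fit on these 4 populations alone, without the Tnaive and Teff libraries, gave the same counts of 21 and 9. The members are described next by their role.

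The nucleolar proteins moved apart. Ncl, nucleolin (chr1:86344719-86359400, minus strand), which binds precursor rRNA, had 14.39, 14.36 and 14.45 in Tnaive and 14.16, 14.18 and 14.23 in Teff. Over the persistent libraries its lowest, median and highest values were 14.68, 14.83 and 14.86, and over PAt and Arrested 14.18, 14.44 and 14.59. All persistent libraries were thus above all others, and Ncl rose by 0.42 ± 0.041 against PAt and Arrested (adjusted p = 1.2e-08) while Teff fell by 0.21 against Tnaive (SE 0.058, adjusted p = 0.0042). After quantile normalization the second difference was -0.075 and did not pass. Gnl3, nucleostemin, a GTP-binding nucleolar protein, had 11.64, 11.65 and 11.59 in Tnaive and 10.94, 10.76 and 10.52 in Teff. Its lowest, median and highest values were 10.62, 10.69 and 10.76 in persistent cells and 11.05, 11.12 and 11.29 in PAt and Arrested, again with no overlap but in the other direction (-0.45 ± 0.054, adjusted p = 1.7e-07). Mybbp1a, a Myb-binding nucleolar protein, also fell (-0.37 ± 0.042, adjusted p = 1.1e-07). Npm1, nucleophosmin, rose by 0.19 ± 0.054 (adjusted p = 0.0043) with overlapping libraries, and Nolc1, a snoRNP chaperone, had a log2 difference of -0.04 ± 0.044 (adjusted p = 0.39).

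Within the box C/D snoRNP, which guides methylation of rRNA, the proteins did not share a direction between the persistent populations and PAt with Arrested. Nop58 rose by 0.17 ± 0.041 (adjusted p = 0.001), and its close relative Nop56 fell by 0.37 on the log2 scale (SE 0.033, adjusted p = 1.9e-09). Nop56 had a lowest, median and highest value of 12.54, 12.59 and 12.63 in the persistent libraries and of 12.91, 12.96 and 13.02 in PAt and Arrested. The methyltransferase Fbl, fibrillarin, was at 12.02, 12.16 and 12.30 against 12.09, 12.23 and 12.28 (-0.04 ± 0.044, adjusted p = 0.44). Rrp9, which binds the U3 snoRNA, was at 9.91, 10.03 and 10.15 against 10.28, 10.52 and 10.68, a difference of -0.50 ± 0.060 (adjusted p = 2.2e-07). The libraries of Nop56 and of Rrp9 did not overlap. All 4 fell from Tnaive to Teff, by differences from -0.52 for Fbl to -1.02 for Nop56.

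The box H/ACA snoRNP, which guides the change of uridine to pseudouridine, held the largest rise. Nhp2 (chr11:51619735-51623714, plus strand) had 10.20, 10.09 and 10.14 in Tnaive and 9.95, 9.93 and 9.78 in Teff. Its lowest, median and highest values were 10.47, 10.56 and 10.65 in the persistent libraries and 9.83, 9.99 and 10.04 in PAt and Arrested. The persistent libraries were above all 12 others, and Nhp2 rose by 0.61 ± 0.047 against PAt and Arrested (adjusted p = 2.1e-10). Gar1 was at 9.79, 9.95 and 10.10 against 9.48, 9.61 and 9.72 and rose by 0.35 ± 0.055 (adjusted p = 1e-05). The pseudouridine synthase Dkc1 and Nop10 did not pass (-0.06 ± 0.050, adjusted p = 0.28, and -0.07 ± 0.059, adjusted p = 0.26). From Tnaive to Teff all 4 fell, Dkc1 by the most (-0.88 ± 0.071, adjusted p = 7.8e-10).

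None of the 4 RNA polymerase I genes among the members rose in either shift. Polr1b, the second largest subunit (chr2:129100995-129126594, plus strand), had 11.06, 11.05 and 11.07 in Tnaive and 10.24, 10.14 and 10.24 in Teff. Its lowest, median and highest values were 10.04, 10.14 and 10.17 in persistent cells and 10.63, 10.76 and 10.82 in PAt and Arrested. These libraries do not overlap, and the log2 difference of -0.61 ± 0.040 (adjusted p = 1.6e-11) was the lowest of the 41 ribosome biogenesis genes. Polr1a, the largest subunit, fell less in that comparison (-0.17 ± 0.041, adjusted p = 0.0013) but by 0.79 from Tnaive to Teff (SE 0.059, adjusted p = 1.8e-10). Polr1c and Polr1e passed in neither: between the persistent populations and PAt with Arrested, Polr1c had -0.01 ± 0.048 (adjusted p = 0.8) and Polr1e 0.03 ± 0.056 (adjusted p = 0.68).

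Of the 13 genes for the small subunit, 8 fell, 1 rose and 4 did not pass between persistent cells and PAt with Arrested, and 12 fell and 1 rose from Tnaive to Teff. Over all tested genes 35.1% fell and 35.9% rose in the first comparison, and 27.7% and 31.3% in the second. The small subunit gene that rose in both was Noc4l (chr5:110648418-110653417, minus strand), a partner of Nop14. Noc4l had 10.54, 10.60 and 10.51 in Tnaive and 10.91, 10.83 and 10.89 in Teff. It had a lowest, median and highest value of 10.90, 11.10 and 11.14 in persistent libraries and of 10.54, 10.74 and 10.99 in PAt and Arrested. It rose by 0.33 ± 0.072 (adjusted p = 0.00061) and by 0.32 ± 0.051 (adjusted p = 1.1e-05), the second with overlapping libraries. Nop14 itself was the lowest of this group, at 10.36, 10.48 and 10.54 against 10.81, 10.90 and 11.02, a fall by 0.44 (SE 0.042, adjusted p = 6.7e-09). The others that fell were Wdr43, Wdr75, Utp20, Nat10, Tsr1, Heatr1 and Utp15, by log2 differences from -0.34 to -0.16, and Utp4, Ddx10, Bysl and Rrp12 did not pass (from -0.02 to 0.07).

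Of the 11 genes for the large subunit, 3 rose, 4 fell and 4 did not pass between persistent cells and PAt with Arrested. Over all tested genes 35.9% rose and 35.1% fell, so these counts were near the background. Wdr12 (chr1:60069785-60098645, minus strand), which forms the PeBoW complex with Pes1 and Bop1, had 10.13, 10.10 and 10.26 in Tnaive and 10.55, 10.85 and 10.78 in Teff. Its lowest, median and highest values were 9.83, 9.99 and 10.27 in the persistent libraries and 9.40, 9.54 and 9.72 in PAt and Arrested. It rose in both shifts, by 0.57 ± 0.085 (adjusted p = 7.4e-06) and 0.48 ± 0.060 (adjusted p = 4.7e-07), with no overlap. Its partners Pes1 and Bop1 fell from Tnaive to Teff (-0.28 ± 0.060, adjusted p = 0.00041, and -0.14 ± 0.059, adjusted p = 0.048) and did not pass between persistent cells and PAt with Arrested (0.01 ± 0.042, adjusted p = 0.86, and 0.04 ± 0.042, adjusted p = 0.45). Bop1 lost its pass from Tnaive to Teff with no filter on low values, with no trend in the fit, and without any 1 of 11 of the 18 libraries. Nop16 and the helicase Ddx21 rose as well, by 0.25 and 0.23. Nop2 was the lowest (-0.28 ± 0.045, adjusted p = 1.1e-05), with Noc3l, Noc2l and Ddx18 also lower, by -0.24 to -0.18, and Rrs1 and Rrp1b did not pass.

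PAt and Arrested cells, with Myc near the Tnaive level, still had lower ribosome biogenesis levels than Tnaive. Of the 44 genes, 36 fell, 2 rose and 6 did not pass, against 23.8% and 26.9% of all tested genes, and the median difference was -0.29. At the thresholds 1 was higher (Mxd4) and 0 lower, with 6.63% and 1.27% of all tested genes; at an unadjusted p under 0.05, with the same fold, 0 were lower. The other riser was Noc4l (0.20 ± 0.063, adjusted p = 0.013), which did not pass once the libraries had been shifted to the same median (0.12), nor without the third Tnaive library. Of the markers of other cells, all 4 B cell markers were higher in PAt and Arrested than in Tnaive (from 1.07 to 2.01), as were Spib (1.64) and Tcf4 (0.88) of the 4 plasmacytoid dendritic, Lyz2 (1.68) and Csf1r (0.45) of the 3 tested monocyte, Klrb1c (0.96) of the 3 NK cell and Cd8a (0.55) of the 2 CD8 markers, and Eomes was lower (-2.25). All 12 other small subunit genes fell, the most being Rrp12 at -0.70 ± 0.068 (adjusted p = 1.7e-08), Utp20 at -0.58 ± 0.062 (adjusted p = 8e-08) and Tsr1 at -0.56 ± 0.045 (adjusted p = 1.1e-09), and Polr1a fell by 0.70 (SE 0.051, adjusted p = 1.5e-10). Ncl (-0.01 ± 0.051, adjusted p = 0.91) did not pass. This comparison shares its Tnaive libraries with the first and its PAt and Arrested libraries with the second.

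Persistent cells and Teff, which had like Myc levels, differed in both directions. Of the 44, 18 were higher in the persistent populations, 7 lower and 19 did not pass, with 29.8% higher and 28.9% lower among all tested genes. The median was 0.091. With the libraries shifted to the same median 15 were higher and 13 lower, and after quantile normalization 16 and 11, so that these counts depended on the scaling. The median of all tested genes was -0.0025 as deposited, -0.063 with the same median and -0.0028 after quantile normalization. Shares over all tested genes under these scalings are not given here, so the excess over the background cannot be compared between them. At the thresholds 0 were higher and 0 lower, with 4.28% and 4.03% of all genes, and the counts at an unadjusted p under 0.05 with the same fold were also 0 and 0. The highest were Nhp2 (0.68 ± 0.057, adjusted p = 1.7e-09), Ncl (0.62 ± 0.051, adjusted p = 1e-09) and Nop58 (0.51 ± 0.050, adjusted p = 1.9e-08). The 7 that were lower were Max, Wdr12, Nop10, Noc3l, Nat10, Tsr1 and Utp20, with Max at -0.73 and Wdr12 at -0.70 (SE 0.074, adjusted p = 4.9e-08) and the others from -0.23 to -0.13. With the replicate number as a block 19 were higher, with Wdr75 added (0.13). All 4 B cell, 4 plasmacytoid dendritic, 3 tested monocyte, 3 NK and 2 CD8 markers were lower in the persistent libraries than in Teff.

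The Timer+ and the Timer- shift, with 12 and 6 libraries, share no library, and their difference was tested in the same model. By the design text their cells came from the same pools of mice, a pairing that this model leaves out. The shift from PAt and Arrested to persistent cells minus that from Tnaive to Teff was above 0 for 36 of the 44 genes and below 0 for 2, and 6 did not pass. Among all tested genes 23.2% were above and 25.5% below, and the median was 0.36 for the 44 against -0.0052 over all. At the thresholds 0 were above and 1 below, with 1.52% and 6.90% of all tested genes; at an unadjusted p under 0.05, with the same fold, 0 were above. The 2 below were Max (-0.55 ± 0.079, adjusted p = 7.57e-06) and Mxd4 (-1.13 ± 0.13, adjusted p = 4.36e-07), which rose in the Timer- shift and fell in the Timer+ shift. The 6 that did not pass were Myc, Polr1c, Polr1e, Noc4l, Wdr12 and Noc3l. Leaving out 1 library gave 34 to 36 above 0 and 2 below, and the replicate number as a block gave 36 and 2. Bop1, above 0, lost its pass without any 1 of 13 libraries, with no filter on low values, after quantile normalization and with no trend. Rrp9 lost its pass without 1 library. In all, 19 genes fell in both shifts, 2 rose in both (Noc4l and Wdr12), and 9 moved in opposite directions: Max, Mxd4 and, with a rise in Timer+ cells, Npm1, Ncl, Nop58, Gar1, Nhp2, Nop16 and Ddx21. Of these 9, Ncl did not pass from Tnaive to Teff after quantile normalization, nor Nop16 without the second Tnaive or the first Teff library. The markers of other cells in Teff also enter this difference: all 4 B cell, 4 plasmacytoid dendritic, 3 tested monocyte and 2 CD8 markers were below 0 in it. Of the NK cell markers, Klrb1c (-2.6) and Ncr1 (-1.4) were below 0 as well, and Eomes did not pass.

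**Figure D4:**
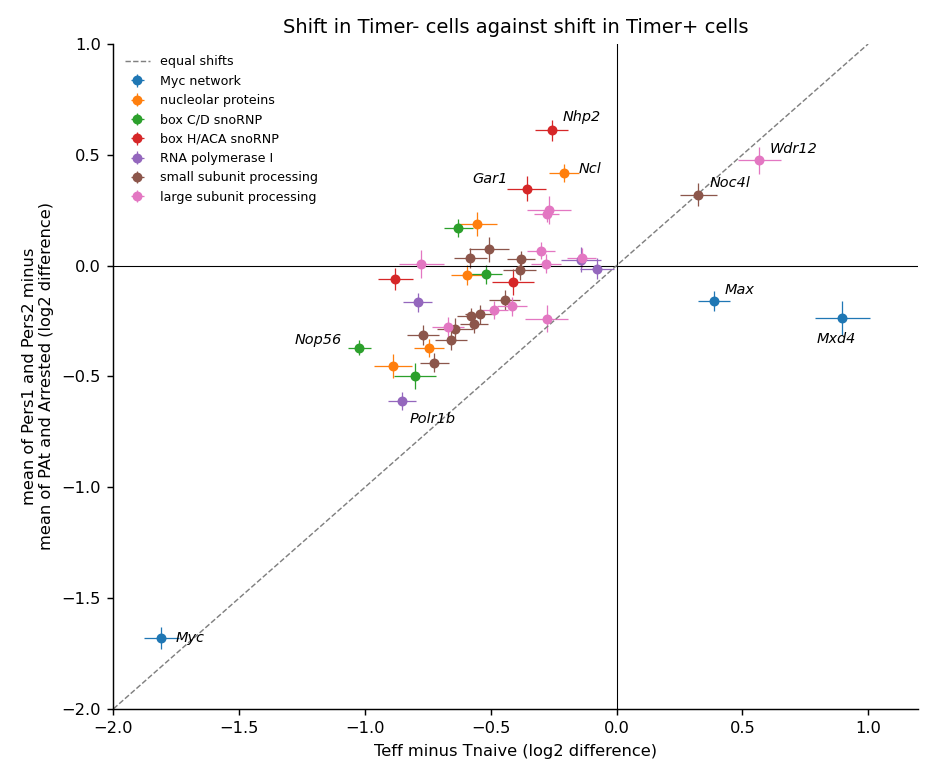
Log2 difference of each of the 44 genes from Tnaive to Teff (horizontal axis) and from PAt and Arrested to the persistent populations (vertical axis), coloured by role, with standard errors as bars. The dashed line marks equal shifts. Myc lies near the line at -1.81 and -1.68, most ribosome biogenesis genes lie above it, and Max and Mxd4 lie below it.

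Between the 2 persistent populations differences were small. In Pers2 against Pers1, 2 genes were higher (6.02% of all tested genes), 6 lower (4.56%) and 36 did not pass. Myc was 0.28 ± 0.069 higher in Pers2 (adjusted p = 0.013), all 3 libraries above, and Mxd4 0.51 ± 0.11 higher (adjusted p = 0.0042), also without overlap. The 6 that were lower were Tsr1, Rrp12, Ddx10, Nat10, Noc3l and Bop1, by differences from -0.30 to -0.19, and no library of theirs overlapped. Tsr1, a GTPase-like factor of the late small subunit, had 11.25, 11.14 and 11.26 in Pers1 and 10.96, 10.92 and 10.92 in Pers2 (-0.28 ± 0.052, adjusted p = 0.0013). Of the 13 small subunit genes, 4 were lower and 9 did not pass. The counts rested on the libraries used. The count lower was 1 without the first Pers1 library, 2 without the second Pers2 library, 3 without the second Pers1, the third Pers1 or the third Pers2 library, and 9 without the first Teff library, and Myc did not pass without the second Pers1 library. With the replicate number as a block, 8 were lower, with Heatr1 and Wdr12 added. At an unadjusted p under 0.05, 2 were higher and 19 lower. Of the other-cell markers, 2 of 4 plasmacytoid dendritic and 1 of 3 tested monocyte markers were lower in Pers2.

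In Arrested against PAt, 5 genes were lower (2.97% of all tested genes), 0 were higher (2.07%) and 39 did not pass; at an unadjusted p under 0.05, 1 was higher and 9 lower. Myc was 0.34 lower in Arrested (SE 0.069, adjusted p = 0.005), and the others were Npm1, Ncl, Nop58 and Dkc1, with differences from -0.28 to -0.20. Ncl was at 14.47, 14.59 and 14.47 in PAt and at 14.18, 14.23 and 14.40 in Arrested (-0.24 ± 0.058, adjusted p = 0.018). The Npm1 libraries overlapped. Npm1 lost its pass without any 1 of 9 of the 18 libraries, with the libraries shifted to the same median and with no trend. In a fit on these 2 populations alone Npm1, Ncl and Dkc1 did not pass. Ncl also lost its pass without any 1 of 3 libraries, and Dkc1 without any 1 of 4. Nop58 lost its pass without any 1 of 15 of the 18 libraries, with no filter on low values, under both other scalings, with no trend and in a fit on these 2 populations alone. The count rested on the libraries used: it was 1 without the second PAt or second Arrested library, 2 without the first PAt or first Arrested library, 3 without the second Tnaive, the third Teff or any Pers1 library, and 1 in a fit on these 2 populations alone. Myc was the gene lower in that fit. With the replicate number as a block 6 were lower, with Mxd4 added (-0.32). Of the other-cell markers, the NK cell marker Klrb1c was higher in Arrested (0.71, adjusted p = 0.000553), and no other passed.

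Genes of the same pathway outside the 44 were counted in the same way between the persistent populations and PAt with Arrested. The cytosolic ribosomal proteins, picked by symbol, mostly fell: 65 of 81 tested, with 5 higher and 11 that did not pass, and a median of -0.32. The lowest were Rps27 at -0.80 and Rps19 at -0.72, and the highest were the paralogues Rps27l at 1.17 and Rpl7l1 at 0.35. From Tnaive to Teff 74 of the 81 fell and 1, Rps27l, rose. The other listed Myc targets went the other way, with 25 of 30 higher, 1 lower and a median of 0.30. They include genes for nucleotide, polyamine and amino acid metabolism, translation initiation and chaperones, and further genes such as Ldha, Ran, Cdk4 and Tfrc. Ldha, lactate dehydrogenase, rose by 1.06 ± 0.035 (adjusted p = 2.53e-16) and the nuclear transport GTPase Ran by 1.05 ± 0.037 (adjusted p = 8.3e-16), both with no overlap. The polyamine enzyme Srm was the 1 lower (-0.23 ± 0.073, adjusted p = 0.0092), and the purine enzyme Gart had -0.0074 ± 0.036 (adjusted p = 0.864). From Tnaive to Teff 16 of these 30 fell and 4 rose. Lower Myc transcript in the persistent cells thus went with lower ribosomal protein transcripts and higher levels of most other listed targets.

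**Figure D5:**
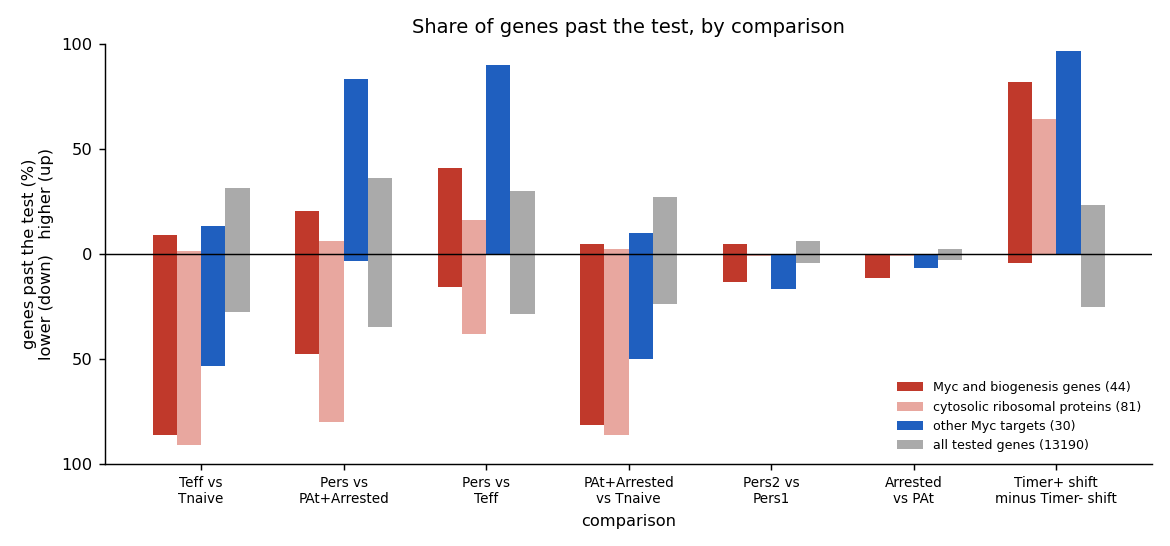
Share of genes past the test in each comparison, higher above 0 and lower below 0, for the 44 genes, 81 cytosolic ribosomal proteins, 30 other Myc targets and all 13190 tested genes. Pers stands for Pers1 and Pers2 together. The first 2 lists fall from Tnaive to Teff, whereas 25 of 30 other Myc targets rise in persistent cells against PAt and Arrested.

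The other pathway lists were mixed. Of 36 further small subunit factors, 6 rose and 12 fell, from Dhx33 at -0.50 and Wdr46 at -0.48 to Krr1 at 0.54 and Pno1 at 0.75. Of 44 further large subunit factors, 14 rose and 17 fell, from the AAA ATPase Mdn1 at -1.18 ± 0.033 (adjusted p = 2.72e-17) and Nle1 at -0.84 to Lyar at 0.40 and Nol10 at 0.49. Of 14 RNA exosome genes 6 rose and 2 fell, with Exosc9 at 1.05 and C1d at 0.72 the highest and Exosc5 at -0.24 and Exosc10 at -0.13 the lowest. Of 12 further RNA polymerase I factors, 3 rose and 4 fell, with Taf1a at -0.68 and Taf1c at -0.45 the lowest, Polr1d at 0.51 the highest, and Znrd1 at 0.15 next (adjusted p = 0.0548). Of 15 RNA polymerase III genes 3 rose and 9 fell, with Polr3gl at -0.76 and Brf1 at -0.50 against Polr3k at 0.56 and Crcp at 0.37. Of 8 snoRNP assembly factors 2 rose (Pih1d1 at 0.13 and Ruvbl1 at 0.11) and 1 fell (Nufip1 at -0.13), and Naf1 had -0.15 (adjusted p = 0.0636). These shares stand beside 35.9% higher and 35.1% lower over all tested genes.

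Other members of the Myc network were counted in the same way. Of 9 tested, 2 rose and 4 fell between the persistent populations and PAt with Arrested, beside 35.9% and 35.1% of all tested genes. Mxd3, a relative of Mxd4, had a lowest, median and highest value of 10.69, 10.82 and 10.89 in the persistent libraries and of 9.39, 9.48 and 9.54 in PAt and Arrested, a rise by 1.32 ± 0.052 (adjusted p = 4.08e-15). Mxd3 also rose from Tnaive to Teff, by 0.69 ± 0.073 (adjusted p = 5.66e-08). Mga, a Max-binding repressor, was at 11.58, 11.78 and 11.93 against 12.41, 12.64 and 12.76, and fell by 0.84 (SE 0.051, adjusted p = 4.13e-12). Mxd1 fell by 0.81 (SE 0.079, adjusted p = 9.58e-09), and Mlx rose by 0.19 ± 0.038 (adjusted p = 0.000173). Mnt, of the same list, was at 10.43, 10.56 and 10.70 against 10.93, 11.17 and 11.24, with no overlap. The libraries of Mxi1 overlapped. The antagonist Mxd3 was thus higher in the persistent cells, while Mxd1 was lower and Mxd4 was lower by 0.24.

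The genes outside the 44 whose pattern was most like the mean of the 41 ribosome biogenesis genes over the 18 libraries were Trap1 (Pearson r = 0.979), Ftsj3 (0.958), Rpl14 (0.947), Gm13546 (0.942) and Abce1 (0.941). Libraries of a population share their cells' source and cluster together, so these values describe likeness over 6 populations more than over 18 points. Ftsj3 is a methyltransferase of rRNA processing, Rpl14 a ribosomal protein and Abce1 a ribosome recycling factor. Among the 44, 7 genes host snoRNAs within their bodies in GENCODE vM21: Ncl, Gnl3, Nop56, Nop58, Dkc1, Wdr43 and Tsr1. That is 15.9%, against 1.57% of 11876 tested genes found in the annotation. The hosts did not share a direction, since Ncl and Nop58 rose in persistent cells, Gnl3, Nop56, Wdr43 and Tsr1 fell, and Dkc1 did not pass. A gene on the opposite strand overlaps 19 of the 44, Nop56, Rrp9, Nhp2 and Wdr12 among them. The libraries kept strand, but whether counting used it is not given in the sources used here. Npm1 and the ribosomal protein genes have many near-identical pseudogene copies, so their levels are uncertain to the extent that reads were shared.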

How the data were processed

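The authors extracted RNA from sorted cells, made stranded mRNA libraries (TruSeq) and sequenced them. Per the labels' processing notes and the methods of the study, CASAVA 1.8.2, FastQC 0.11.2 and TopHat2 2.0.9 were run against mm10, followed by DESeq2. The read counter is not given in the sources used here. For 15402 genes the authors deposited normalised counts on a log2 scale, from -0.021 to 18.89, of the kind given by the regularised log of DESeq2. Where reads are few, that transform shrinks a gene's differences. No count table was used, so the depth of each library and its counting error are unknown.

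The values were used as deposited, with no pseudocount. The 13190 genes with a mean of at least 3 were fitted with limma 3.58.1 in R 4.3.3 (trend, moderated variances) in 1 model of 6 populations and 18 libraries (12 residual degrees of freedom), which was tested on simulated data. Adjusted p-values are Benjamini-Hochberg over the 13190 genes, and 2212 genes were left out. Pers stands for the mean of Pers1 and Pers2. A difference that combines both shifts is the interaction term of that model. Columns were matched to populations by their names, and no column was left unused.

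The 44 genes, the pathway lists, the marker lists and the promoter motif were chosen with earlier results of these data known. Named were Myc, Max and Mxd4, the genes with the highest and lowest difference of persistent cells against PAt and Arrested in each role and in each pathway list (2 each way there), the genes that passed against the majority of a comparison, the genes past the thresholds within either Timer+ pair or in the interaction, and the 5 nearest in pattern. Further genes, such as Nop56, Dkc1, Rrp12, Bop1, Mnt and Mxi1, were named after their values were seen.

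Populations were sorted from the same pools of mice according to the design text, so replicate numbers were taken to pair libraries, although no label says outright that a number marks a pool. The fit with the number as a block was an alternative. Deviations from the population means correlated with a median r of 0.17 over 45 pairs of libraries with the same number (from -0.21 to 0.44, 32 above 0.1) and of -0.064 over 90 pairs with different numbers. The replicates are separate pools of mice.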

Additional observations from a re-analysis of the deposited data

Results flagged for a closer look

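Several genes were singled out because their shift from PAt and Arrested to the persistent populations differed from their shift from Tnaive to Teff, by the test of that difference in the model of 18 libraries (limma, adjusted over 13190 genes). The difference was above 0 for 36 of the 44 genes and below 0 for 2. Of these, 9 genes passed the test in opposite directions in the 2 shifts. The difference was -0.55 for Max and -1.13 for Mxd4, which rose from Tnaive to Teff and fell in the persistent populations. It was 0.87 for Nhp2, 0.80 for Nop58, 0.74 for Npm1, 0.70 for Gar1, 0.63 for Ncl, 0.52 for Nop16 and 0.51 for Ddx21, which fell from Tnaive to Teff and rose in the persistent populations. After quantile normalization the fall of Ncl from Tnaive to Teff was -0.075 and did not pass. The Teff libraries differ from the other populations in their markers of plasmacytoid dendritic, B, CD8 and monocyte cells. Klrb1c and Ncr1 of the NK cell markers differ as well. The part of these cells in the differences was not tested.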

How the results depend on the processing

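Fold threshold: with none, the genes called higher and lower are the 4 and 38 (Teff against Tnaive), 9 and 21 (persistent against PAt with Arrested), 18 and 7 (persistent against Teff), 2 and 36 (PAt with Arrested against Tnaive), 2 and 6 (Pers2 against Pers1), 0 and 5 (Arrested against PAt) and 36 and 2 (difference of shifts) past the test. With a threshold of 0.5 they are 2 and 23, 1 and 2, 3 and 2, 1 and 6, 1 and 0, 0 and 0, and 14 and 2. Shifting all libraries to the same median moved the median difference to -0.133 for persistent against PAt with Arrested and to -0.369 for PAt with Arrested against Tnaive, and quantile normalization moved the first to -0.140. The median of all tested genes moved in the same direction. With the same-median shift it went from -0.0135 to -0.0785 in the first comparison and from -0.0067 to -0.0851 in the second. After quantile normalization it was -0.0389 in the first. The same-median shift gave 13 lower for persistent against Teff (11 after quantile normalization), 1 higher for PAt with Arrested against Tnaive, 11 lower for Pers2 against Pers1 and 3 lower for Arrested against PAt. That last count was 3 without the trend and 1 with only the populations compared. Quantile normalization moved the median of all genes for Teff against Tnaive from 0.0047 to -0.0994, while that of the 44 genes was -0.512 in both. The cause of these changes was not tested.

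Leaving out 1 library gave 1 to 2 genes lower at the thresholds for Teff against Tnaive (1 without the third Teff library), and left the other counts at the thresholds as they were. The counts past the test were 1 to 2 higher for PAt with Arrested against Tnaive, 1 to 2 higher and 1 to 9 lower for Pers2 against Pers1, and 1 to 5 lower for Arrested against PAt. With the replicate number as a block, 8 rather than 6 genes were lower for Pers2 against Pers1 and 6 rather than 5 for Arrested against PAt (Mxd4 added). The block brought 4 gene results past the test, given above, and changed no other call. Of the 308 differences of 44 genes in 7 comparisons, 6 lost their pass with the same median, 5 after quantile normalization, 8 without the trend, 5 with only the populations compared and 3 without the filter. The interaction could not be fitted on fewer populations. No difference that had passed the test changed its sign under the alternatives run, whereas some that had not passed did so, among them Pes1, Bop1 and Polr1e for persistent against PAt with Arrested under the other scalings.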
